A study of Homo sapiens with 6 samples.

Results

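The genes described are 10 members of the epidermal growth factor (EGF) receptor system, out of 60664 genes in the deposited count table, found by their symbols. They are 5 ligands (AREG, EREG, BTC, TGFA and HBEGF), 4 receptors (EGFR, ERBB2, ERBB3 and ERBB4) and the feedback inhibitor ERRFI1, and all 10 were found once. All 10 passed the filter on low counts, BTC only through the KDM4A plasmid libraries, since none of the control libraries reached the limit of 0.524 CPM. RNA was sequenced in 6 libraries labelled as HCT8, a long-established line of human colorectal cancer cells, kept in DMEM with fetal bovine serum. The genotype of 3 libraries was given as KDM4A-overexpressing, from cells that had received a plasmid for KDM4A, a demethylase of histone H3, and the genotype of the other 3 libraries as WT, from cells that had received a control plasmid. All 6 libraries carry the same batch number. No source used here gives the time after transfection, any selection, or the promoter and sequence of the insert. Whether the 3 libraries of a group are separate cultures is not stated either, and p-values therefore reflect the spread among these libraries alone, which could be technical.

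The ERBB receptors are tyrosine kinases of the cell surface that pair up when an EGF-like ligand binds, and they pass the signal to the RAS-ERK and PI3K-AKT cascades. The ligands are made as membrane-anchored precursors and are released by ADAM proteases. In the intestine the pathway drives growth of the crypt epithelium, and in colorectal cancer EGFR is a drug target whose ligands AREG and EREG are followed as markers.

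The libraries held 14284240 to 23905980 counts. KDM4A, which checks the labels, stood at 152, 157 and 160 CPM in the libraries of its plasmid, against 42.8, 45.8 and 45.2 CPM with the control plasmid, and the groups did not overlap (CPM, counts per 1000000 after library totals were scaled by TMM factors). The log2 fold change, KDM4A plasmid over control, was 1.81 with SE 0.06 (adjusted p = 7.2e-15, from edgeR's quasi-likelihood test with Benjamini-Hochberg adjustment over all genes tested). Transcripts of the plasmid and of the cells' own gene are counted together. Markers of colon epithelium, the tissue of origin of the line, summed to 3592 to 3844 CPM with the KDM4A plasmid and 266 to 281 CPM with the control plasmid. All 12 of the 18 markers that could be tested rose, among them EPCAM and KRT8, while 6 (KRT20, GPA33, CEACAM5, TFF3, MUC2 and FABP1) had too few counts in both groups, and none was at 0 in every library. Markers of kidney development summed to 95.8 to 104 CPM with the KDM4A plasmid and 129 to 137 CPM with the control plasmid, with 3 of 11 higher and 7 lower. Fibroblast markers summed to 17.8 to 19.3 CPM with the KDM4A plasmid and 22.5 to 22.8 CPM with the control plasmid. Blood and immune markers summed to 6.30 to 6.70 CPM with the KDM4A plasmid and 4.25 to 5.07 CPM with the control plasmid, and endothelial markers, with EMCN at 0 in every library, to 1.76 to 1.86 CPM with the KDM4A plasmid and 1.23 to 1.74 CPM with the control plasmid. EPCAM, an adhesion protein of epithelial cells, was at 330 ± 17.7 CPM with the KDM4A plasmid and 18.7 ± 0.99 CPM with the control plasmid, and the keratin gene KRT8 at 1668 ± 90.0 CPM with the KDM4A plasmid and 119 ± 4.4 CPM with the control plasmid (SD, n = 3 each). The libraries labelled control HCT8 thus held EPCAM, KRT8 and the marker sum at more than 10-fold lower levels than the KDM4A plasmid libraries. The difference was smaller for CDH1 (log2 fold change 2.64, SE 0.06) and CDX2 (1.69, SE 0.07). Libraries correlated at 0.996 to 0.997 within groups and at 0.912 to 0.922 between groups (Pearson, log2(CPM + 0.5), across genes, which are not independent replicates). A difference in the cells behind the groups and a difference made by the plasmid cannot be told apart here, and this holds for every KDM4A plasmid over control value below. Epithelial marker levels move with the groups in the same direction as 9 of the 10 genes below, and their part in those results was not tested. In bulk RNA, fewer cells of a type and less RNA per cell cannot be told apart.

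All 5 ligands rose with the KDM4A plasmid, and so did 3 receptors and ERRFI1, while ERBB4 fell. The 3 largest rises belonged to BTC, EREG and AREG, whose genes lie on the same stretch of chromosome 4. All 10 genes passed the test (edgeR, adjusted p under 0.05), but so did 78.6% of the 17147 genes tested, 40.0% as higher and 38.6% as lower, so a count of members called says little by itself. The median log2 fold change was 4.17 over the ligands, BTC included, and 1.18 over the receptors, against 0.03 over all genes tested. Without BTC, the ligand values ran from 0.95 (HBEGF) to 4.45 (EREG). Rises of at least 16-fold were rare, at 2.47% of genes tested, and BTC, EREG and AREG were among them. BTC, however, could enter the test only by being high with the KDM4A plasmid. Its fold and rank, and the ligand median that counts it in, are therefore given as a description.

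Short promoter sequences of these 3 ligand genes are shown because the genes share a chromosome region and moved together. Each line gives the 250 bases before the gene's start, 5' to 3' in the direction of the gene, from RefSeq on GRCh38.p14, with AREG at chr4:74444886-74445135 (plus strand), EREG at chr4:74364895-74365144 (plus strand) and BTC at chr4:74794524-74794773 (minus strand). Capitals mark matches on either strand to any of 6 motifs, namely the core promoter box TATAAA, the AP-1 motif TGANTCA, the cAMP response element TGACGTCA, the SP/KLF box GGGCGG, the TEAD motif GGAATG and the NF-kB consensus, and no matches overlapped within these 3 windows.
AREG: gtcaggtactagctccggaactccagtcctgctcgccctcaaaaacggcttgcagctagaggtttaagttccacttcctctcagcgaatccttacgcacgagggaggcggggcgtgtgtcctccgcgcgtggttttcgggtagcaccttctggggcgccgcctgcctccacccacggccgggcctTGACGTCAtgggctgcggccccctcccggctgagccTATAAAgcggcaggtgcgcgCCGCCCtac
EREG: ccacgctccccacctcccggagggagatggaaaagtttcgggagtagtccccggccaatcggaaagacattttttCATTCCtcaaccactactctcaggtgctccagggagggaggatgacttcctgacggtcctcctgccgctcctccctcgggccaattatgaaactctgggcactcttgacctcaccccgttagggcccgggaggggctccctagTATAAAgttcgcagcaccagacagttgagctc
BTC: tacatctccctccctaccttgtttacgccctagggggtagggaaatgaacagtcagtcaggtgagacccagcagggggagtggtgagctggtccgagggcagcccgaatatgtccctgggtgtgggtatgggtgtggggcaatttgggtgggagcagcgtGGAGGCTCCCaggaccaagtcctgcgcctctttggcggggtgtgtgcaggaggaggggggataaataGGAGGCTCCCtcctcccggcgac
AREG and EREG each hold TATAAA, beginning 29 and 32 bases before the start, a motif found in 10.7% of the 35116 windows of this length in the table. AREG also holds the full cAMP response element TGACGTCA, beginning 65 bases before the start, a motif in 1.65% of windows, and an SP/KLF box, as do 42.6% of windows. EREG holds 1 match to the TEAD motif, beginning 175 bases before the start (11.9% of windows). BTC holds 2 matches to the NF-kB consensus, beginning 90 and 23 bases before the start, with the same letters in both (6.88% of windows). Of the 6 motifs, only the SP/KLF box was found in the windows of HBEGF, with 5 matches, ERBB4 and ERRFI1, with 1 match each. TGFA and EGFR have 2 windows each in the table, and of the members ERBB3 has none. The EGFR window at chr7:55109589-55109838 lies inside the gene and not before its deposited start. It also holds TATAAA, beginning 146 and 36 bases before the start that this window precedes. That window further holds 2 matches to the AP-1 motif and 1 to the TEAD motif. The other EGFR window and 1 TGFA window hold the SP/KLF box alone, the other TGFA window holds no match, and ERBB2 holds 1 AP-1 match. The window of BTC had the lowest ratio of observed to expected CpG of these 3 ligands, at 0.353, against 0.530 for EREG, 0.871 for AREG and a median of 0.558 over all windows. A match is a description of letters and does not show that a factor binds.

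EREG, which encodes epiregulin, a ligand of EGFR and ERBB4, was the most counted ligand in every library. It stood at 352, 351 and 342 CPM in the KDM4A plasmid libraries, against 16.1, 15.8 and 15.8 CPM in the control libraries. The groups lay far apart with little spread inside either, and the log2 fold change was 4.45 (SE 0.06, edgeR adjusted p = 6.6e-19), a 21.9-fold rise. EREG (ENSG00000124882) lies on chromosome 4 from 74365145 to 74388749 on the plus strand of GRCh38.p13, the build of the deposited table.

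AREG, which encodes amphiregulin, a ligand of EGFR with a heparin-binding stretch, moved much as EREG did. Its level was 125, 115 and 118 CPM in the KDM4A plasmid libraries, against 6.38, 6.12 and 7.27 CPM in the control libraries. All KDM4A plasmid libraries were higher than all control libraries, and the difference was 4.17 on the log2 scale (SE 0.08; adjusted p = 6.6e-18, edgeR). AREG (ENSG00000109321; chromosome 4, 74445136 to 74455005, plus strand) begins past the end of EREG, and 56.4 kb separate them. The count of EREG over the count of AREG, a ratio that no scaling of a library can change, was 2.82, 3.05 and 2.89 in the KDM4A plasmid libraries, against 2.53, 2.59 and 2.18 in the control libraries. The ratio differed by 0.27 on the log2 scale and its groups did not overlap, but an exact permutation test of 3 against 3 libraries gave p = 0.1, the smallest it can give (two-sided, 0.125 adjusted over the 5 ratios tested here and below).

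BTC, which encodes betacellulin, a ligand of EGFR and ERBB4, was at a low level with the KDM4A plasmid and close to 0 with the control plasmid. The libraries with the KDM4A plasmid had 75, 105 and 62 counts, against 2, 3 and 2 counts in the control libraries. Those are 4.36, 4.44 and 4.37 CPM in the KDM4A plasmid libraries, against 0.106, 0.148 and 0.0876 CPM in the control libraries. The rise was the largest of the 10 by fold, at 5.21 on the log2 scale (SE 0.27; adjusted p = 8.9e-12, edgeR), but it is the least precise of the ligands because it rests on 7 counts in all controls. BTC passed the filter only through the KDM4A plasmid libraries, so this fold and its p-value are given as a description. The ratio of summed counts, scaled to library size, was 39.0, with a 95% interval from 18.6 to 98.0 (exact binomial, counting error only). The gene (ENSG00000174808) runs from 74744759 to 74794523 of chromosome 4 on the minus strand.

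TGFA and HBEGF rose less. TGFA, the gene of transforming growth factor alpha, which binds EGFR, was at 20.6, 18.1 and 18.9 CPM in the KDM4A plasmid libraries, against 3.96, 3.85 and 3.59 CPM in the control libraries (log2 fold change 2.34, SE 0.10, edgeR adjusted p = 1.1e-12). HBEGF, which encodes heparin-binding EGF-like growth factor, a ligand of EGFR and ERBB4, was at 9.59, 9.52 and 9.73 CPM with the KDM4A plasmid, against 4.64, 5.58 and 4.69 CPM with the control plasmid (log2 fold change 0.95, SE 0.11, edgeR adjusted p = 4.7e-07). Neither gene's groups overlapped, as in 79.7% of genes tested. The rise of HBEGF, 1.93-fold, did not pass a test against 2-fold (adjusted p = 1). The HBEGF levels were closer together among the KDM4A plasmid libraries (SD 0.106 CPM) than among the control libraries (SD 0.526 CPM). TGFA (ENSG00000163235) lies on chromosome 2 from 70447284 to 70554193 and HBEGF (ENSG00000113070) on chromosome 5 from 140332843 to 140346603, both on the minus strand.

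**Figure D1:**
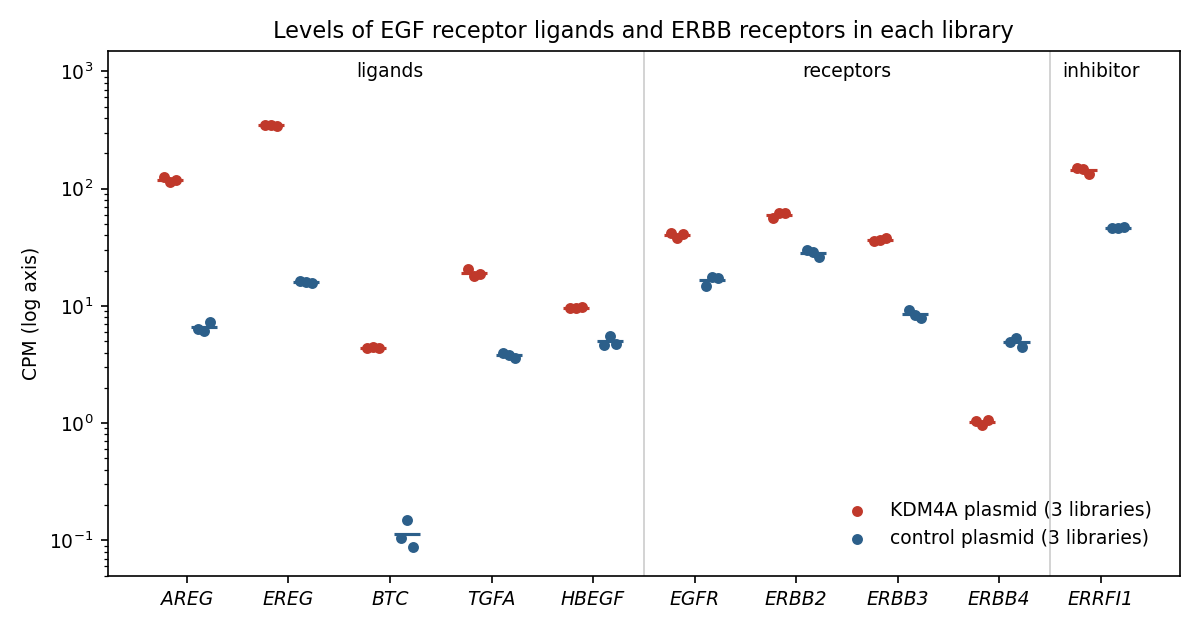
Levels in CPM (log axis) of the 5 ligands, 4 receptors and ERRFI1 in 3 KDM4A plasmid libraries (red, left) and 3 control plasmid libraries (blue, right), with a bar at each group's mean. The groups lie apart for every gene, and ERBB4 alone of the 10 is lower with the KDM4A plasmid.

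EGFR, the receptor that all 5 ligands bind, was at 41.9, 38.1 and 40.9 CPM in the KDM4A plasmid libraries, against 14.9, 17.7 and 17.3 CPM in the control libraries. The groups did not overlap, and the log2 fold change was 1.27 (SE 0.08, edgeR adjusted p = 7.0e-11). EGFR has 9905 bases of exon, more than any of the 10 genes but ERBB4, and with the trend on exon length removed its log2 fold change was 1.95. EREG counts over EGFR counts were 8.41, 9.21 and 8.36 in the KDM4A plasmid libraries, against 1.09, 0.894 and 0.916 in the control libraries. The ligand was thus counted far more than the receptor with the KDM4A plasmid and about as often as the receptor without it (exact permutation p = 0.1, the smallest possible; 0.125 adjusted over 5 ratios). The gene (ENSG00000146648) lies on chromosome 7 from 55019017 to 55211628, plus strand.

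ERBB2, the receptor with no known ligand of its own and the preferred partner of the others, was at 55.7, 61.8 and 62.4 CPM in the KDM4A plasmid libraries, against 29.8, 28.7 and 26.3 CPM in the control libraries (log2 fold change 1.09, SE 0.07, edgeR adjusted p = 8.1e-11). It was the most counted receptor in both groups. Its rise of 2.12-fold did not pass a test against 2-fold (adjusted p = 0.142). ERBB2 counts over EGFR counts were 1.33, 1.62 and 1.52 with the KDM4A plasmid and 2.0, 1.62 and 1.52 with the control plasmid, so the ranges overlapped (exact permutation p = 0.5, also 0.5 adjusted over 5 ratios), with a difference in log2 ratio of -0.20. ERBB2 (ENSG00000141736; chromosome 17, 39687914 to 39730426, plus strand) overlaps MIEN1 by 1931 bases and PGAP3 by 8884 bases, both on the other strand and both higher with the KDM4A plasmid (log2 fold changes 1.54, SE 0.08, and 1.42, SE 0.12). Since the strand setting of the counting is not stated, reads from the shared stretches cannot be assigned with certainty.

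ERBB3 rose most of the receptors and ERBB4 fell. ERBB3, a receptor of neuregulins with a weak kinase, was at 35.7, 36.7 and 37.9 CPM in the KDM4A plasmid libraries, against 9.29, 8.44 and 7.93 CPM in the control libraries (log2 fold change 2.11, SE 0.08, edgeR adjusted p = 1.6e-13). ERBB4, a receptor of neuregulins and of HBEGF, BTC and EREG, was at 1.05, 0.973 and 1.06 CPM with the KDM4A plasmid, against 4.91, 5.33 and 4.42 CPM with the control plasmid. It fell by 2.25 on the log2 scale (SE 0.18, edgeR adjusted p = 2.3e-09), and all KDM4A plasmid libraries were below all control libraries. Those levels rest on 18, 23 and 15 counts in the KDM4A plasmid libraries and on 93, 108 and 101 counts in the control libraries.

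ERBB4 had the longest exon total of the 10, 12097 bases, and its log2 fold change was -1.53 with the exon length trend removed and -1.28 with the GC trend removed as well, and it passed the test in both. With the counts of ERBB3 divided by those of ERBB4, the ratio was 34.2, 37.7 and 35.9 in the KDM4A plasmid libraries, against 1.89, 1.58 and 1.79 in the control libraries. ERBB3 was counted more than ERBB4 in every library, and by a far larger factor with the KDM4A plasmid (exact permutation p = 0.1, the smallest possible; 0.125 adjusted over 5 ratios). ERBB3 (ENSG00000065361) lies on chromosome 12 from 56076799 to 56103505, plus strand, and ERBB4 (ENSG00000178568) on chromosome 2 from 211375717 to 212538841, minus strand.

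ERRFI1, also known as MIG6, encodes a cytoplasmic protein that binds the kinase domain of active ERBB receptors and blocks it, and it is itself induced by the pathway. It was at 150, 146 and 134 CPM in the KDM4A plasmid libraries, against 45.9, 46.6 and 46.7 CPM in the control libraries (log2 fold change 1.63, SE 0.06, edgeR adjusted p = 6.0e-14). The inhibitor was counted more than EGFR in every library, at 3.58, 3.85 and 3.26 times EGFR with the KDM4A plasmid and 3.09, 2.63 and 2.71 times with the control plasmid. Those groups did not overlap, but the difference of 0.34 in log2 ratio is small beside the changes of either gene (exact permutation p = 0.1, the smallest possible; 0.125 adjusted over 5 ratios). ERRFI1 (ENSG00000116285) lies on chromosome 1 from 8004404 to 8026309, minus strand, and shares 909 bases with an unnamed lncRNA gene on the other strand that had 115 counts in all 6 libraries.

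**Figure D2:**
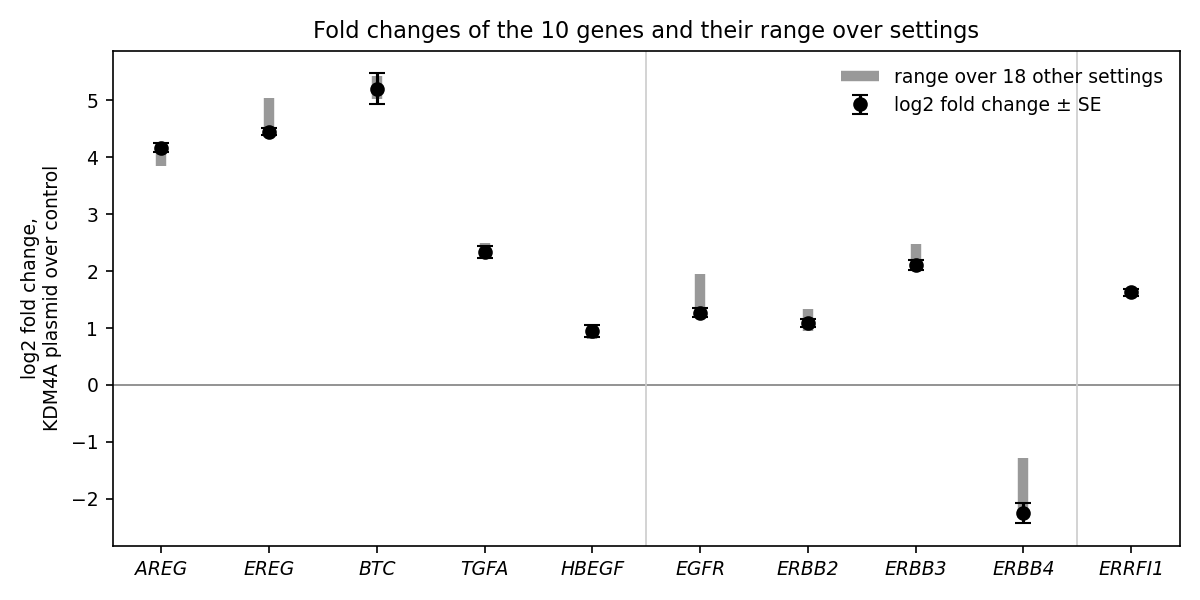
Log2 fold changes, KDM4A plasmid over control, with SE (black) and the range over 18 other settings (grey) for the 10 genes. The direction of each gene is the same in all of them, and the widest ranges are those of EGFR (1.19 to 1.95) and ERBB4 (-2.34 to -1.28).

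Set among all genes tested, BTC, EREG and AREG were in the upper tail. The log2 fold change was smaller than that of BTC in 99.4% of genes, than that of EREG in 98.4% and than that of AREG in 97.9%. The rank of BTC is a description, since it could be tested only by being high with the KDM4A plasmid. TGFA and ERBB3 followed, with 93.6% and 92.9% of genes below them, and then ERRFI1 with 90.5%. EGFR (87.4%), ERBB2 (85.0%) and HBEGF (82.7%) lay nearer to the bulk of genes, where 16.4% of genes rose at least 2-fold. ERBB4 was in the lower tail, with 1.39% of genes below it, and 13.6% of genes fell at least 2-fold.

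**Figure D3:**
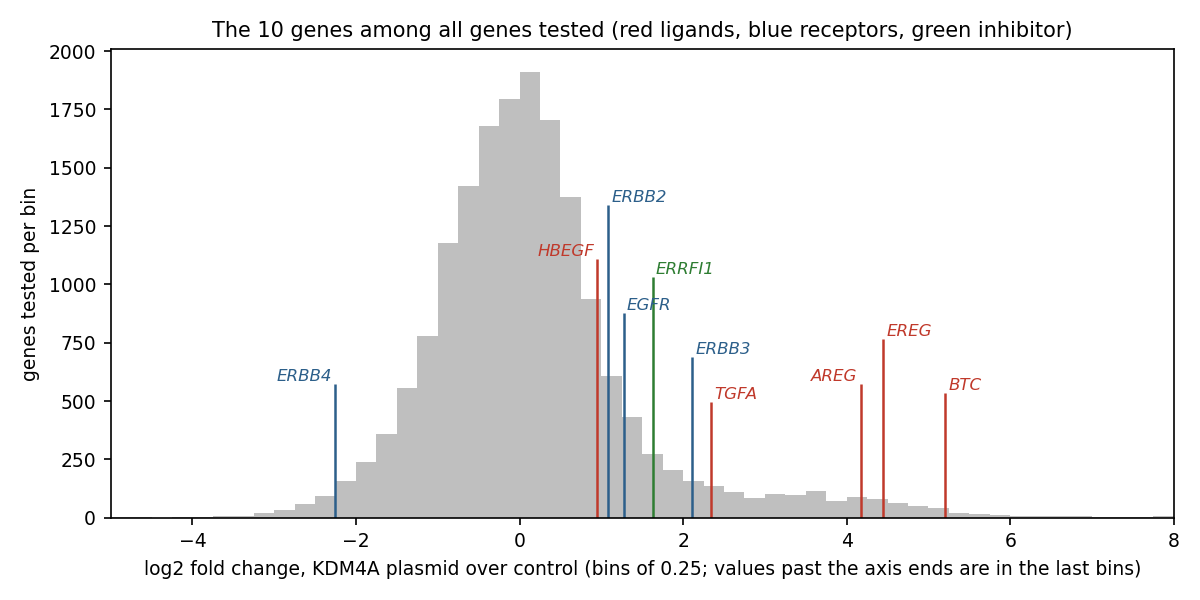
Number of genes tested in each bin of log2 fold change, KDM4A plasmid over control, with lines at the ligands (red), receptors (blue) and ERRFI1 (green). BTC, EREG and AREG stand at 4.17 to 5.21, the other rises at 0.95 to 2.34 and ERBB4 at -2.25.

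Summed over the family, ligand RNA changed more than receptor RNA. The ligands summed to 512, 498 and 494 CPM in the KDM4A plasmid libraries, against 31.2, 31.5 and 31.5 CPM in the control libraries. The receptors summed to 134, 138 and 142 CPM with the KDM4A plasmid, against 58.9, 60.2 and 55.9 CPM with the control plasmid. Ligand counts were thus 3.63 ± 0.17 times receptor counts in KDM4A plasmid libraries and 0.539 ± 0.021 times in control libraries (SD, n = 3 each), and per kb of exon the ratio was 7.67 ± 0.49 with the KDM4A plasmid and 1.21 ± 0.089 with the control plasmid. The order was not uniform, since the fold of HBEGF was below those of EGFR, ERBB2 and ERBB3, a difference that was not tested.

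The make-up of the ligand pool also differed. EREG held 69.5% ± 0.84 of ligand counts with the KDM4A plasmid and 50.7% ± 0.83 with the control plasmid, and EREG and AREG together held 93.4% ± 0.16 with the KDM4A plasmid and 71.7% ± 1.9 with the control plasmid (SD, n = 3 each). HBEGF, the ligand that rose least, held 1.92% ± 0.050 of ligand counts with the KDM4A plasmid and 15.8% ± 1.6 with the control plasmid. Counts favour long transcripts, and EREG has 4615 bases of exon against 1234 for AREG. Per kb of exon AREG came first among the ligands in every library, at 53.0% ± 0.93 of the ligand sum with the KDM4A plasmid and 45.0% ± 3.1 with the control plasmid, followed by EREG at 41.3% ± 0.96 with the KDM4A plasmid and 29.1% ± 1.0 with the control plasmid.

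On the same scale, CPM per kb of exon, the order of the 10 genes with the KDM4A plasmid was AREG (96.8 ± 4.2), EREG (75.5 ± 1.2), ERRFI1 (46.3 ± 2.8), ERBB2 (13.2 ± 0.82), ERBB3 (6.55 ± 0.19), TGFA (4.67 ± 0.31), HBEGF (4.08 ± 0.045), EGFR (4.07 ± 0.20), BTC (1.65 ± 0.017) and ERBB4 (0.0848 ± 0.0038) (SD, n = 3). HBEGF and EGFR overlapped and the other neighbours in this order did not. With the control plasmid the order was ERRFI1 (15.0 ± 0.14), ERBB2 (6.20 ± 0.40), AREG (5.34 ± 0.49), EREG (3.45 ± 0.040), HBEGF (2.11 ± 0.22), EGFR (1.68 ± 0.15), ERBB3 (1.52 ± 0.12), TGFA (0.923 ± 0.045), ERBB4 (0.404 ± 0.037) and BTC (0.0429 ± 0.012). There ERBB2 overlapped AREG and EGFR overlapped ERBB3. AREG and EREG thus stood above the inhibitor and every receptor with the KDM4A plasmid, while ERRFI1 stood above every ligand with the control plasmid. Among receptors, ERBB3 held 27.5% ± 0.30 of the sum per kb with the KDM4A plasmid and 15.5% ± 0.75 with the control plasmid, and ERBB4 held 0.356% ± 0.022 with the KDM4A plasmid and 4.11% ± 0.24 with the control plasmid. The share of EGFR was 17.1% ± 1.3 with the KDM4A plasmid and 17.2% ± 2.0 with the control plasmid, and its ranges overlapped.

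**Figure D4:**
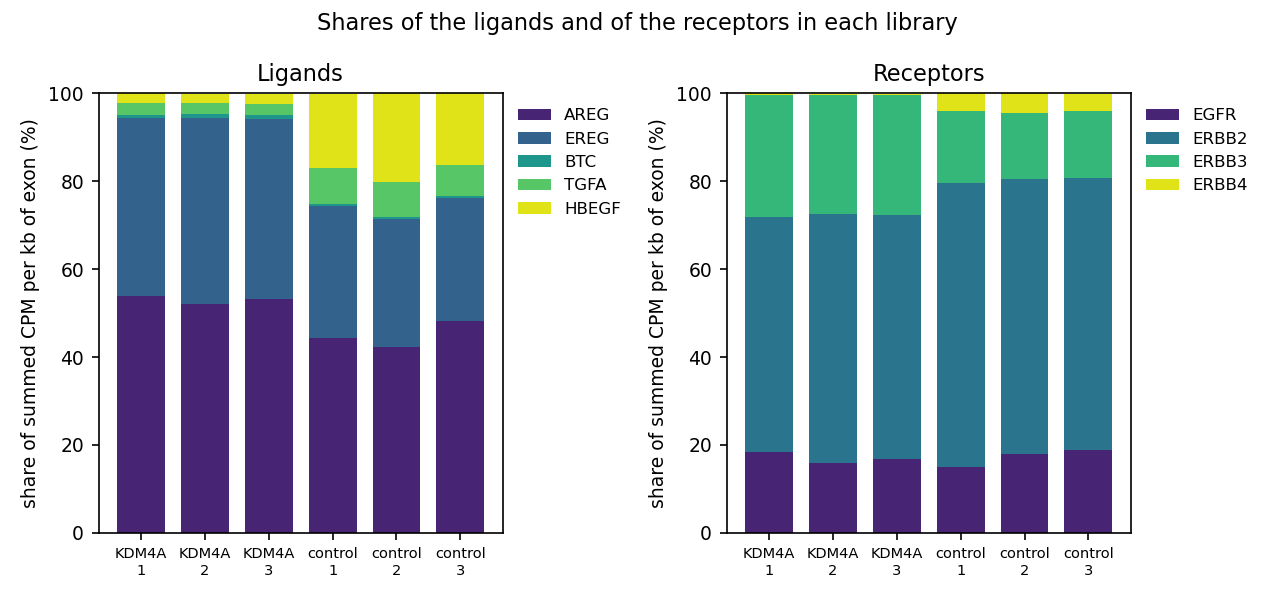
Share (%) of each ligand in the ligand sum (left) and of each receptor in the receptor sum (right), from CPM per kb of exon, in 3 KDM4A plasmid and 3 control plasmid libraries. With the KDM4A plasmid, AREG and EREG take up most of the ligand sum and the share of HBEGF is 2.23% ± 0.067, against 17.8% ± 2.1 with the control plasmid, and ERBB3 takes a larger share of the receptor sum.

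EREG, AREG and BTC lie within 429 kb of each other, and with EPGN, the gene of a further EGF-like ligand on the far side of EREG, the stretch is 486 kb long. In the stretch from 1 Mb before EREG to 1 Mb after BTC, 16 of 25 protein-coding genes could be tested, the 3 ligands included. Of these, 10 rose, 5 fell and MTHFD2L, a folate enzyme gene between the chemokine genes and EPGN, did not pass (log2 fold change 0.07, SE 0.07, edgeR adjusted p = 0.333). The 3 ligands, around which the stretch was drawn, are among the rises. Of the other 13 genes, 7 rose and 5 fell, with a median log2 fold change of 0.84, against 2.93 with the ligands counted in and 0.03 over all genes tested. Over all genes tested, 40.0% were called higher and 38.6% lower, so these counts of neighbours say little by themselves. The rises included genes of neutrophil-attracting chemokines on the side of EREG, of which CXCL2 (6.58, SE 0.14), CXCL3 (5.96, SE 0.09), CXCL5 (4.81, SE 0.07) and CXCL1 (6.27, SE 0.10) are nearest to it, and PARM1 (1.69, SE 0.07) past BTC. CXCL1, CXCL2 and CXCL3 are closely alike in sequence and can share reads, so their separate values are uncertain. CXCL2, with 12, 5 and 13 counts in the control libraries, could be tested only by being high with the KDM4A plasmid. The 5 genes that fell all lie past PARM1. The rises were not continuous, since MTHFD2L lies between the chemokine genes and EREG. EPGN, 48.4 kb before EREG, had 3 counts in all KDM4A plasmid libraries and 6 in all control libraries, too few to test.

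**Figure D5:**
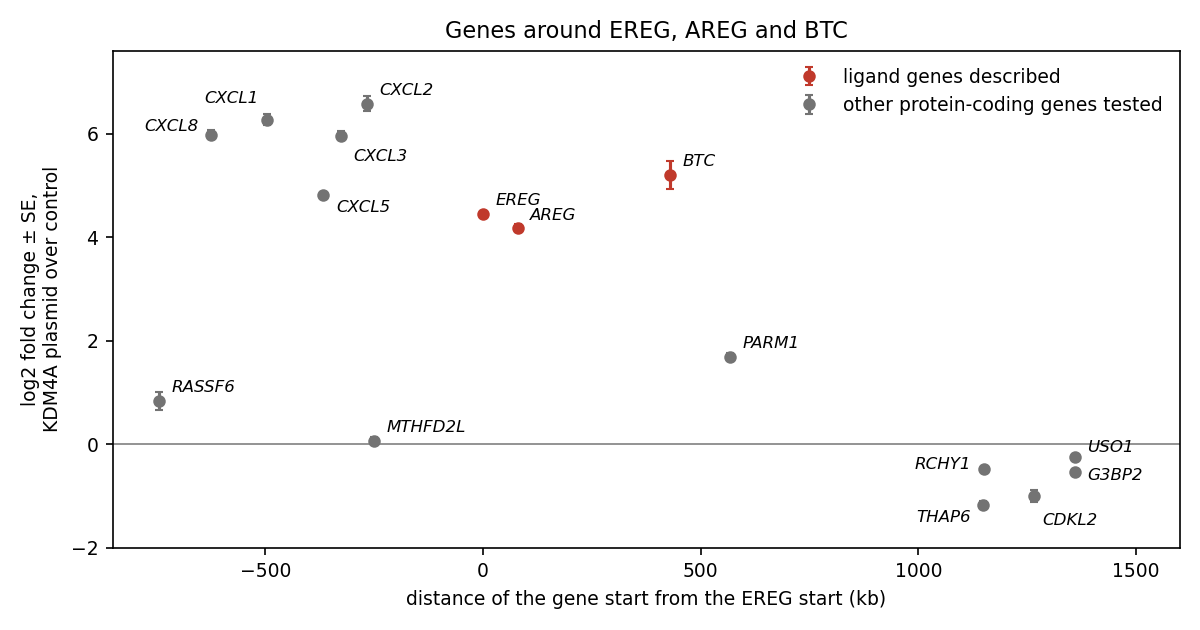
Log2 fold changes, KDM4A plasmid over control, with SE of the protein-coding genes tested around EREG, by the distance of their start from the EREG start (kb). EREG, AREG and BTC (red) and the CXCL genes lie above 4, MTHFD2L between them lies near 0 and the genes furthest to the right lie below 0.

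The ligands outside the 5 did not move together. EGF, the founding ligand of EGFR, rose (8.62 ± 0.18 CPM with the KDM4A plasmid and 1.44 ± 0.086 CPM with the control plasmid, SD, n = 3 each; log2 fold change 2.58, SE 0.14, edgeR adjusted p = 1.3e-11). The neuregulins, ligands of ERBB3 and ERBB4, did not follow it. NRG2 (-0.85, SE 0.16) and NRG4 (-0.92, SE 0.13) fell. NRG1 did not pass the filter, with 1, 1 and 2 counts in the KDM4A plasmid libraries and 50, 21 and 4 counts in the control libraries, so its control level differs widely between libraries. NRG3 had 0 counts in all libraries and is below detection at this depth.

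Genes that release the ligands or act on their release, the protease inhibitor TIMP3 included, were taken as a list of 14. Each gene was tested singly, and a rise need not mean more release. Of 13 tested, 8 rose (61.5%, against 40.0% of all genes tested), 2 fell (15.4%, against 38.6%) and 3 did not pass, with a median log2 fold change of 0.55, against 0.03 over all genes. The rhomboid protease gene RHBDL2 (4.11, SE 0.32, with 9 counts in all control libraries) and the inactive rhomboid RHBDF2 (1.5, SE 0.11), which carries the sheddase ADAM17 to the cell surface, rose most. RHBDL2 passed the filter only through the KDM4A plasmid libraries, so its rise is given as a description. ADAM17 itself, the main sheddase of AREG, EREG, TGFA and HBEGF, had a small fall (-0.21, SE 0.06), and CNIH4, a cargo receptor of the early secretory pathway, fell too (-0.28, SE 0.06). Both falls turned positive when the trends on exon length and GC were removed, and then 12 of the 13 rose and none fell. Leaving out KDM4A plasmid library 3 left 1 of the falls.

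Genes that restrain the receptors or govern their turnover were taken as a list of 23. Of 23 tested, 8 rose (34.8%), 11 fell (47.8%) and 4 did not pass, with a median of -0.10. These shares are near those over all genes tested, 40.0% higher and 38.6% lower, so the counts are no result about the list. The ubiquitin ligase CBLC (4.43, SE 0.21) and the signalling suppressor SOCS3 (2.42, SE 0.18) rose most, while CBLB (-1.23, SE 0.08), a relative of CBLC, and SOCS4 (-1.20, SE 0.06), which promotes EGFR degradation, fell most. CBLC, with 9, 9 and 10 counts in the control libraries, passed the filter only through the KDM4A plasmid libraries. Its rise is therefore given as a description. With trends on exon length and GC removed, 13 rose and 8 fell.

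Of the downstream components, more fell than rose, a balance that was lost with trends on exon length and GC removed. Of 22 adaptor and RAS-ERK genes, 7 rose (31.8%, against 40.0% of all genes tested), 13 fell (59.1%, against 38.6%) and 2 did not pass. Their median was -0.36. The adaptors GRB7 (4.11, SE 0.19), which binds ERBB2, and SHC1 (1.57, SE 0.06) rose most, and the docking protein GAB1 (-1.61, SE 0.07) and the RAS exchange factor SOS2 (-1.32, SE 0.06) fell most. GRB7, with 9, 9 and 14 counts in the control libraries, could be tested only by being high with the KDM4A plasmid. With the trends on exon length and GC removed, 7 rose and 7 fell. Of 12 PI3K-AKT genes tested, 3 rose and 9 fell, with a median of -0.39. The largest rise was that of the kinase gene AKT1 (0.55, SE 0.06), and the largest fall that of the mTOR complex gene RICTOR (-1.65, SE 0.08). With the exon length trend removed, 5 PI3K-AKT genes rose and 2 fell, so the balance of this list turns with that choice.

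Transcripts that ERK signalling is known to induce were mostly higher. Of 16 tested, 14 rose (87.5%, against 40.0% of all genes tested) and 2 fell, with a median of 3.18, against 0.03 over all genes. The largest rises were those of DUSP6, the phosphatase that switches off ERK, at 64.7 ± 0.69 CPM with the KDM4A plasmid and 2.45 ± 0.30 CPM with the control plasmid (log2 fold change 4.72, SE 0.09), and of the immediate early gene IER3 (4.68, SE 0.07). The transcription factor genes JUN (-0.81, SE 0.06) and MYC (-0.75, SE 0.05) were the 2 that fell.

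The genes whose levels over the 6 libraries were nearest to the ends of the family were found by the mean absolute difference in log2(CPM + 0.5). Nearest to BTC, the largest rise, were CCL28 (0.10), a mucosal chemokine, ALPI (0.11), an intestinal alkaline phosphatase, and RAET1L (0.11), a ligand of an NK cell receptor. Nearest to ERBB4, the only fall, were RBM44 (0.08), RAB40A (0.09) and KCTD19 (0.09). With 2 groups of 3 libraries, such likeness is mostly a like level in each group.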

How the data were processed

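Raw gene counts from 6 libraries (3 KDM4A plasmid, 3 control plasmid) were used. Per the submitters' processing notes, the authors used HISAT2, HTSeq and GRCh38. No source used here gives versions, options or strand setting. The deposited counts are whole numbers per Ensembl gene, with exon lengths and GRCh38.p13 locations per the file headers, and all columns of libraries were matched by name. Totals were 14284240 to 23905980 counts. Replicates showed more spread than counting error gives (chi-square over its degrees of freedom, 1.48 to 10.5). Genes were kept by filterByExpr (minimum count 10), which left 17147, and tested with edgeR 4.0.16 (R 4.3.3; TMM factors, quasi-likelihood test, robust, no covariates), with Benjamini-Hochberg adjustment over all of them and a threshold of 0.05. Fold changes are KDM4A plasmid over control. SE is the log2 fold change divided by the square root of the test's F. The procedure was tested on simulated data. Alternatives used limma 3.58.1 and DESeq2 1.42.0, other scalings, filters and thresholds, a replicate block and leaving out each library. GC came from transcripts of the reference annotation, for 99.07% of genes tested. CPM per kb divides by the deposited exon length. Intervals cover counting error only. Promoters came from RefSeq (GRCh38.p14), which matched 9 of the 10 genes. The members, lists, tests and motifs were chosen with earlier results of these data known. Named genes were the 10 members, the other EGF-family ligands, the 2 largest rises and falls of each list among genes that passed, neighbours of EREG and AREG, and the nearest profiles. Some genes that this rule takes are not reported here.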

Additional observations from a re-analysis of the deposited data

How the results depend on the processing

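The direction of all 10 genes was kept under 18 alternatives, and their calls were kept in all but a test against 2-fold, added after seeing the data. That test took the calls over all genes to 2159 higher and 1495 lower, and HBEGF (log2 fold change 0.95, adjusted p = 1) and ERBB2 (1.09, adjusted p = 0.142) did not pass it (edgeR). With the exon length trend removed, EGFR was at 1.95 and ERBB4 at -1.53, and with GC as well, also added after seeing the data, at 1.86 and -1.28. Summed per kb of exon, ligands were 7.67 times receptors with the KDM4A plasmid and 1.21 times with the control plasmid. Same-numbered libraries did not deviate together (correlations of deviations -0.204, 0.0468 and -0.133). With 3 libraries per group this cannot show whether the numbers pair them. A fit with a replicate block called 6741 genes higher and 6501 lower. Other scalings moved the median log2 fold change of all genes by -0.05 to 0.03. Depth limits BTC, ERBB4 and the genes left untested most.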
